A study of Sus scrofa domesticus with 4 samples.

Results

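Prostaglandin-endoperoxide synthase 2 (PTGS2), prostaglandin E synthase (PTGES), 15-hydroxyprostaglandin dehydrogenase (HPGD) and the prostaglandin F receptor (PTGFR) were followed in explants of pig myometrium, the smooth muscle wall of the uterus, after exposure to orexin A (OXA), a hypothalamic neuropeptide. The members were all non-control array probes whose listed transcript is a RefSeq transcript of 1 of these 4 genes. This gave 5 of 43603 probes, from 3 of the 3029 genes that could be named: 2 for PTGS2 (NM_214321), 2 for PTGES (NM_001038631) and 1 for PTGFR (NM_214059). No probe was matched to HPGD. OXA-treated explants received the peptide for 24 h after 2 h of preincubation, and non-treated explants were kept alike without it. All tissue came from the middle of the uterine horns of gilts, Large White x Polish Landrace, 7 to 8 months old, on days 15 to 16 of pregnancy. The sample labels give 10 nM OXA and the series' design text gives 10 µM, so the dose is not settled. Each of 4 two-colour arrays carried OXA-treated RNA in one dye and non-treated RNA in the other, from 4 individuals. Cultures were set up in duplicate. Whether the OXA-treated and non-treated RNA hybridised together shared an animal is not given, and p-values measure the spread between these 4 arrays.

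PTGS2, the inducible cyclooxygenase, converts arachidonic acid to the common prostaglandin precursor, and PTGES converts that precursor to prostaglandin E2. HPGD starts the breakdown of prostaglandins, and PTGFR, a receptor that raises intracellular calcium, mediates the contraction of uterine muscle by prostaglandin F2alpha. In early pig pregnancy the balance of prostaglandins E2 and F2alpha is known for its part in keeping the corpus luteum, since prostaglandin F2alpha is luteolytic.

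By the sample labels the dyes were swapped, with OXA-treated RNA in Cy5 for arrays 1 and 3 and non-treated RNA in Cy5 for arrays 2 and 4, whereas the labelling protocol names Cy5 for OXA throughout. Log2 ratios of arrays 2 and 4, which share an orientation, correlated at r = -0.38 across the 19500 tested probes. Array 2 correlated below 0 with arrays 1 (r = -0.59) and 3 (r = -0.30) too, while arrays 1 and 4, of opposite orientation, correlated at r = 0.62. The other pairs had r = 0.23 (arrays 1 and 3) and r = -0.06 (arrays 3 and 4). Probes are not independent replicates, and the direction of the arrays is therefore not settled. Values below follow the sample labels, and the estimates of both measured members are also given with array 2 turned and with Cy5 read as OXA on every array. The share of probes flagged well above background was 39.9% to 49.7% for OXA-treated and 41.5% to 61.1% for non-treated RNA. The smooth muscle markers ACTA2, CNN1, DES, SMTN and MYLK were all among the tested genes.

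PTGS2 differed between arrays in the direction of its ratio. Its brighter probe had processed signals of 10899, 14632, 5882 and 8672 scanner units in OXA-treated tissue on arrays 1 to 4, against 6782, 13356, 13880 and 6986 in non-treated tissue. OXA-treated tissue was higher on arrays 1, 2 and 4 and lower on array 3, and the ranges of both groups overlapped. In bulk tissue, fewer cells of a type and less RNA per cell cannot be told apart. The log2 ratios of OXA over non-treated were 0.68, 0.13, -1.24 and 0.31, with a mean of -0.03 ± 0.84 (SD, n = 4). The dimmer probe, for the same transcript, gave 0.70, 0.12, -1.17 and -0.09, with a mean of -0.11 ± 0.78 (SD, n = 4). The probes of PTGS2 differed by at most 0.07 on arrays 1 to 3 and by 0.40 on array 4, where they also disagreed in sign.

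The change of PTGS2 did not pass the test. In limma's fit over all probes the 95% confidence interval of its log2 ratio ran from -0.94 to 0.88 (adjusted p = 0.998), so changes of up to 1.85-fold higher or to 0.522-fold were within the error. An exact sign-flip permutation test over the 4 arrays gave p = 1 (two-sided), where the smallest p that 4 arrays allow is 0.125. The estimate was 0.45 without array 3, -0.51 without array 1 and 0.02 without array 2. With array 2 turned it was 0.04, and with Cy5 read as OXA on every array it was -0.25. Under that last reading OXA and dye coincide, so no dye term could be fitted and any dye bias stays in such estimates. Turning array 2, or leaving out an array, changes which arrays the dye term balances. Those estimates are therefore not plain means of the ratios.

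The level of PTGS2 also varied within each group. Its signal spanned 2.49-fold over the OXA-treated samples and 2.05-fold over the non-treated ones. In non-treated tissue PTGS2 was high on arrays 2 and 3 and low on arrays 1 and 4. This order held when each channel was set against its median over tested probes: on that log2 scale the non-treated levels were 4.08, 5.19, 5.10 and 3.82. Which channel is the non-treated one rests on the sample labels, and the part of dye in these levels was not tested.

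By the sample labels, PTGES had log2 ratios above 0 on all 4 arrays with both probes. Its brighter probe had signals of 21454, 16842, 12694 and 26378 units in OXA-treated tissue, against 12385, 15537, 12599 and 20128 in non-treated tissue. OXA-treated tissue was higher on arrays 1 and 4, and nearly level with non-treated tissue on array 3. The log2 ratios were 0.79, 0.12, 0.01 and 0.39, with a mean of 0.33 ± 0.35 (SD, n = 4), or 1.25-fold. The dimmer probe had signals of 7776, 6434, 5105 and 11299 units in OXA-treated tissue, against 5442, 6338, 4845 and 7385 in non-treated tissue. Its log2 ratios were 0.51, 0.02, 0.08 and 0.61, with a mean of 0.31 ± 0.30 (SD, n = 4).

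The size of the PTGES ratio was about its spread between arrays, and it did not pass the test. The 95% confidence interval of the brighter probe's log2 ratio ran from -0.35 to 1.01 (limma's adjusted p = 0.998). The exact sign-flip permutation test gave p = 0.125 (two-sided), the smallest that 4 arrays allow. The estimate was 0.31 with array 2 turned, and with Cy5 read as OXA on every array it was 0.07, at which reading the dimmer probe had -0.01. Without array 1 it was 0.13, and without array 3 it was 0.52. PTGES signals spanned 2.08-fold over OXA-treated samples and 1.63-fold over non-treated samples with the brighter probe.

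**Figure D1:**
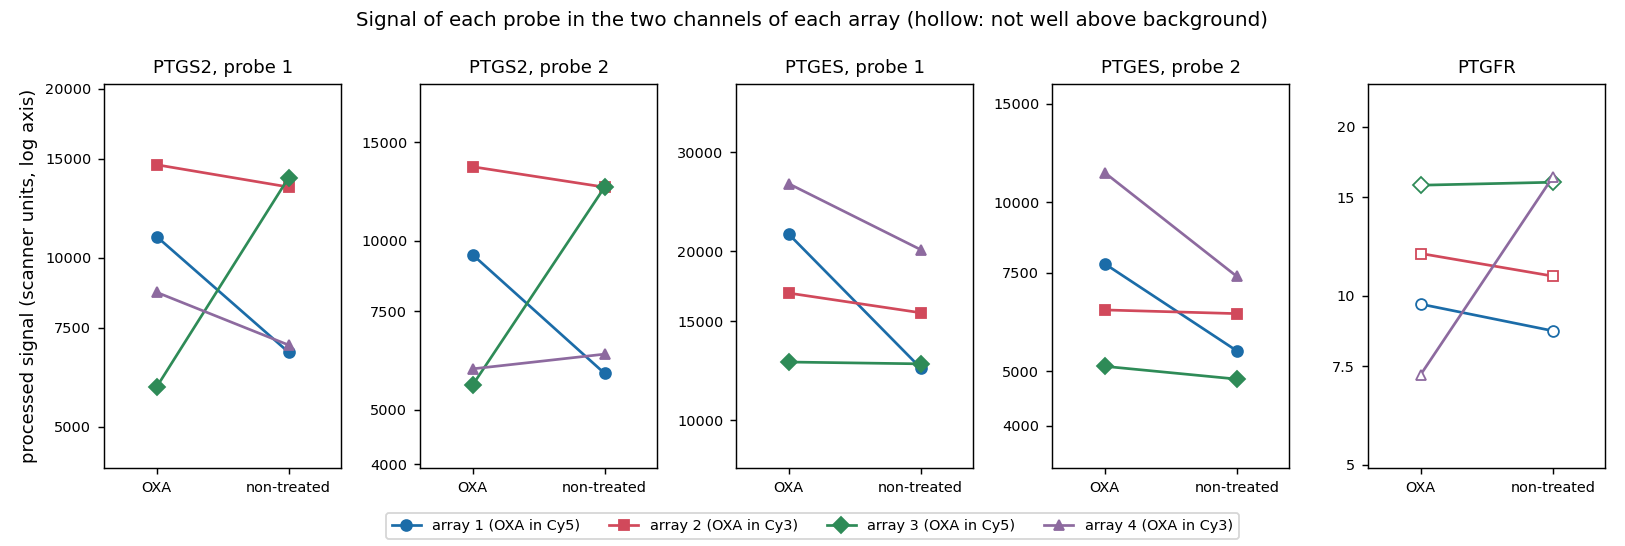
Processed signal (scanner units, log axis) of each PTGS2, PTGES and PTGFR probe in the OXA and the non-treated channel, with 1 line per array and hollow points for probes not well above background. PTGS2 lines cross, with array 3 alone at 5882 units in OXA-treated against 13880 in non-treated tissue on the brighter probe, while PTGES lines fall from OXA to non-treated or are nearly level.

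Set side by side within each array, the ratios of the brighter PTGES and PTGS2 probes were close on 3 arrays and far apart on 1. The PTGES log2 ratio minus that of PTGS2, with the brighter probe of each, was 0.11, -0.02, 1.25 and 0.08 on arrays 1 to 4. On array 3 PTGS2 was low with OXA while PTGES was level. The dimmer probes lay apart on array 3 as well, at 0.08 for PTGES and -1.17 for PTGS2. They also lay apart on array 4, at 0.61 for PTGES and -0.09 for PTGS2. The mean difference of the brighter probes was 0.36 ± 0.60 (SD, n = 4). An exact sign-flip permutation test did not separate it from 0 (p = 0.25, two-sided).

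The PTGFR probe stayed below the well-above-background flag in all 8 channels. Its only probe had signals of 9.7, 11.9, 15.7 and 7.2 units in OXA-treated tissue, against 8.7, 10.8, 15.9 and 16.3 in non-treated tissue. No ratio is given for PTGFR, since both channels were below the level that this array measured. This says nothing of the receptor protein, and the result rests on 1 probe.

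Of the 4 tested member probes, 0 were called by limma at an adjusted p under 0.05. The same fit called 0 of 19500 probes in all (0%). An unadjusted p under 0.05 was found for 234 probes (1.2%), a share below that threshold itself, and the member probes were not among these 234. Log2 ratios were above 0 on all 4 arrays for 3.96% of tested probes and below 0 on all 4 for 3.76%. Both PTGES probes were in the first of these sets, and they count as 1 gene, since they share a transcript. Neither PTGS2 probe was in either set. With array 2 turned the shares were 17.7% and 17.8%, and with Cy5 read as OXA on every array they were 5.46% and 4.23%. Under these readings 0 PTGES and 0 PTGS2 probes were in either set. As labelled, the mean ratio of the brighter PTGES probe was larger in size than that of 72.1% of tested probes. Its SD over arrays lay above that of 22.7% of tested probes, whereas the SD of the brighter PTGS2 probe lay above that of 74.4%. The mean of PTGES was larger in size than that of 37.3% of probes with array 2 turned and of 21.8% with Cy5 read as OXA on every array. Its SD then lay above that of 44.6% and 42.4% of probes, and that of PTGS2 above 89.6% and 70.8%.

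Of 42 other genes of prostaglandin and lipoxygenase metabolism on a list, 12 had at least 1 probe and 9 passed the filter on dim probes. With 1 probe per gene, the brightest, 5 had estimates above 0 and 4 below, and 0 were called at an adjusted p under 0.05. The split was 6 above and 3 below with array 2 turned, and 4 above and 5 below with Cy5 read as OXA on every array. Their median log2 ratio was 0.13, against -0.02 over all tested probes. It was 0.06 with array 2 turned, -0.003 with no filter on dim probes and -0.06 with Cy5 read as OXA on every array. The genes above 0 as labelled include TBXAS1, which passed the filter through the OXA channel alone, where it was the higher. The split and the median are therefore descriptions. With the filter on all arrays in both channels, which leaves out TBXAS1 and AKR1CL1, 3 genes were above 0 and 4 below. The median was then -0.11.

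Among the synthases, AKR1B1, an aldose reductase that makes prostaglandin F2alpha in human and bovine endometrium, had signals of 1550, 1839, 1160 and 1588 units in OXA-treated tissue, against 585, 2061, 2009 and 785 in non-treated tissue. As with PTGS2, the non-treated level of AKR1B1 was high on arrays 2 and 3 and low on arrays 1 and 4. Its log2 ratios of 1.40, -0.17, -0.79 and 1.02 averaged 0.37 ± 1.02 (SD, n = 4). AKR1CL1, another aldo-keto reductase, had 1.82, 1.00, -2.84 and 0.54, which averaged 0.13 ± 2.05 (SD, n = 4). It was not well above background with OXA on array 3 and in non-treated tissue on array 1, so those ratios rest on dim spots. The brightest probes of PTGS2, AKR1B1, AKR1CL1 and CBR1, a carbonyl reductase that acts on prostaglandins, had negative ratios on array 3 and positive ones on arrays 1 and 4. The dimmer AKR1B1 probe kept these signs, whereas the dimmer PTGS2 probe had -0.09 on array 4. The AKR1CL1 probes that were not tested had -0.59 on array 1 or -0.58 on array 4. Arrays 1 and 4 correlated at r = 0.62 over all tested probes, and the share of probes with these signs was not computed. CBR1 had 0.38, -0.61, -0.30 and 1.06, with a mean of 0.13 ± 0.74 (SD, n = 4).

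PTGDS, the synthase of prostaglandin D2, had 0.19, -1.23, 0.31 and 0.28, with a mean of -0.11 ± 0.74 (SD, n = 4). Array 2 was low and the other arrays lay close together. TBXAS1, the thromboxane synthase, had log2 ratios of 0.31, 2.12, 1.13 and 0.69, above 0 on all 4 arrays, with a mean of 1.06 ± 0.78 (SD, n = 4). It passed the filter on dim probes through the OXA channel alone, where it was the higher, so its ratio is a description and no p is given. Its probe was dim, with 57.8, 133.1, 57.1 and 116.6 units in OXA-treated tissue, well above background on 3 of 4 arrays, against 46.7, 30.7, 26.1 and 72.4 in non-treated tissue, well above background on 1 of 4. The TBXAS1 estimate was 0.29 with normexp background correction and loess, 0.23 with array 2 turned and -0.34 with Cy5 read as OXA on every array. The other TBXAS1 probe was not well above background on any array.

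PTGR1, which acts after HPGD in prostaglandin breakdown, had 0.57, 0.12, -0.01 and -0.11, with a mean of 0.14 ± 0.30 (SD, n = 4). Its dimmer probe was opposite in sign on arrays 2 and 4, at -0.02 and 0.09. PTGER3, a prostaglandin E2 receptor, had -0.76, 0.02, 0.39 and -0.48, with a mean of -0.21 ± 0.51 (SD, n = 4). The brighter and dimmer PTGER3 probes disagreed in sign on arrays 2 and 4, where the dimmer one had -0.76 and 0.40. In the lipoxygenase branch, ALOX5AP, the activator of arachidonate 5-lipoxygenase, averaged -0.26 ± 0.56, and the lipoxygenase ALOX15 averaged -0.12 ± 0.68 (SD, n = 4). Probes of the same gene also disagreed in sign for ALOX5AP on arrays 1 and 4 and for ALOX15 on array 3. The probes of AKR1C1, CBR2 and SLCO2A1, the prostaglandin transporter, were not tested. Of these, 1 CBR2 and 1 SLCO2A1 probe were well above background in non-treated tissue on array 4, and no other measurement was.

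**Figure D2:**
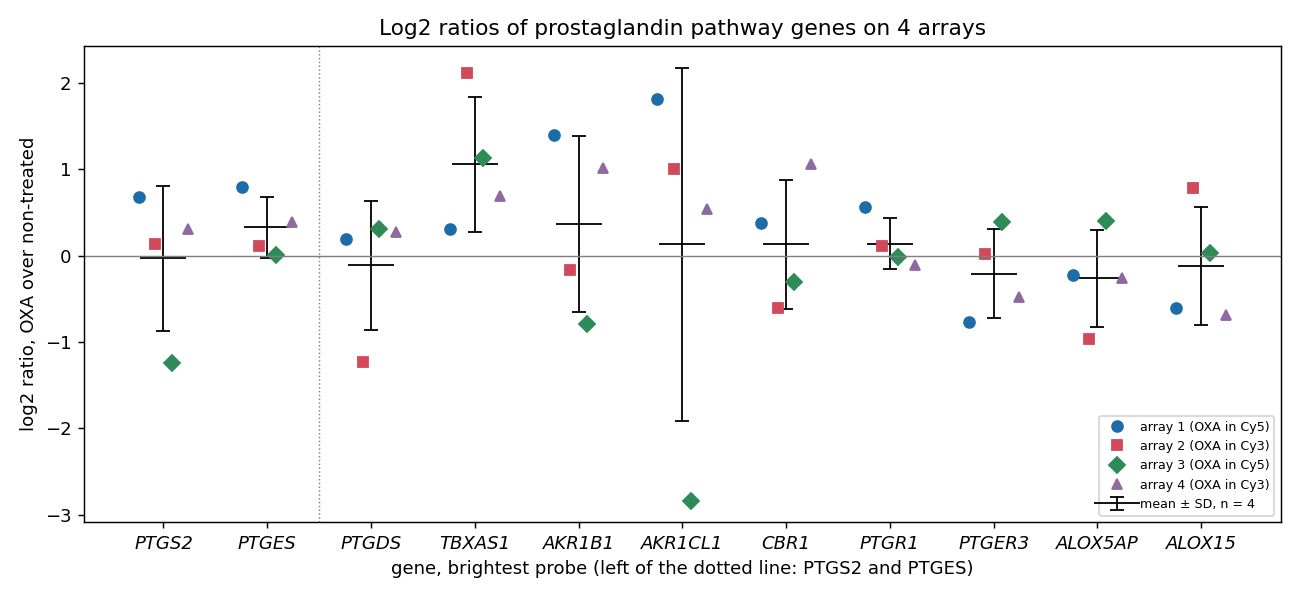
Log2 ratios of OXA over non-treated for the brightest tested probe of each gene, with a point per array and the mean ± SD (n = 4). PTGES lies at or above 0 on all arrays with a mean of 0.33, and PTGS2 and AKR1CL1 have array 3 far below the others, at -1.24 and -2.84.

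The genes with the level pattern most like each member were found by Pearson's r over the 8 channels, on log2 signals set against each channel's median, among 1984 other named genes. For PTGS2 these were AKR1CL1 (r = 0.955), PPP2R5A (r = 0.94) and CCL5 (r = 0.93). For PTGES they were RPL10A (r = 0.97), CES1 (r = 0.96) and OXT (r = 0.96). The channels of an array share a hybridisation, and with normexp signals 1 of the 3 genes was kept for PTGS2 (CCL5) and 0 of 3 for PTGES.

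Markers of several cell types differed between the channels of an array. Neutrophil markers had median log2 ratios of 0.72, 0.86, -1.99 and 0.88, the same signs as the brighter PTGS2 probe on the 4 arrays, while the dimmer probe, at -0.09, differed in sign on array 4. This list rests on 2 of 4 genes, while the probe of S100A9 did not pass the filter on dim probes. The 2 genes, S100A8 and S100A12, differed in the sign of their estimates, with 1 above 0 and 1 below. Their summed signal ranged from 271 to 5690 units in OXA-treated and from 120 to 8190 in non-treated tissue. Smooth muscle markers, 5 of 9 measured, had medians of -0.44, -0.11, 0.40 and -0.61, opposite in sign to the brighter PTGS2 probe on each array and to the dimmer one on arrays 1 to 3. Their summed signal ranged from 202439 to 462534 units in OXA-treated and from 172389 to 568912 in non-treated tissue.

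Macrophage markers, 8 of 11 measured, had medians of 0.72, -0.84, 1.62 and 0.83, positive on arrays 1, 3 and 4. Their summed signal ranged from 1376 to 10101 units in OXA-treated and from 1601 to 5667 in non-treated tissue. Markers of uterine epithelium, 5 of 10 measured, had medians of -1.15, 2.06, -0.90 and 1.87. Their summed signal ranged from 109 to 8664 units in OXA-treated and from 219 to 2240 in non-treated tissue, and CLDN4 did not pass the filter. Stroma markers, 3 of 6 measured, had medians of -0.14, -0.43, 0.19 and -0.59, also opposite in sign to the brighter PTGS2 probe on each array. Endothelial markers, 4 of 7 measured, had medians of -0.40, -0.18, 0.26 and 0.59. Of the T and NK cell markers, NKG7 alone was measured, with log2 ratios of 0.66, -0.68, 1.10 and 0.43, and CD3D, CD3E, CD3G, CD2 and CD8A did not pass the filter. The part of these cells in the PTGS2 and PTGES ratios was not tested.

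**Figure D3:**
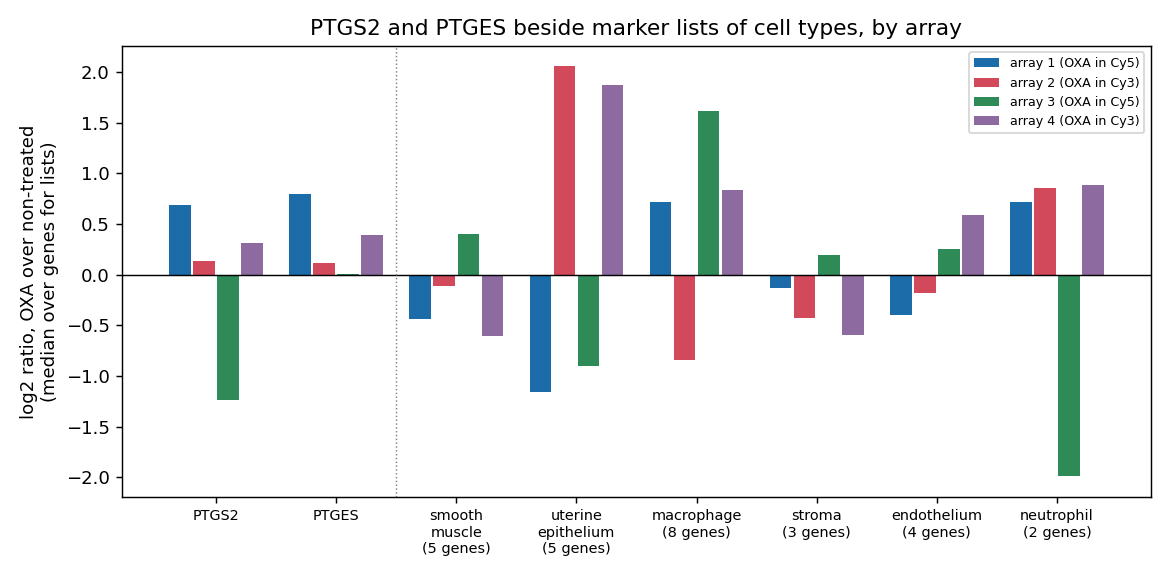
Log2 ratios of OXA over non-treated by array for PTGS2 and PTGES (brighter probes) and, right of the dotted line, medians over the measured markers of 6 cell types. The bars of the brighter PTGS2 probe and of neutrophil markers have the same signs, with array 3 at -1.24 and -1.99. The neutrophil bars rest on 2 genes whose estimates differed in sign.

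The estimates of PTGS2 and PTGES were much alike with other background correction, and moved further with Cy5 read as OXA on every array. With normexp background correction and loess, PTGS2 had -0.01 and PTGES had 0.31, against -0.03 and 0.33 from the deposited ratios. Reading Cy5 as OXA on every array gave -0.25 and 0.07, and turning array 2 gave 0.04 and 0.31. In the plot of estimates by processing, each 95% confidence interval includes 0.

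**Figure D4:**
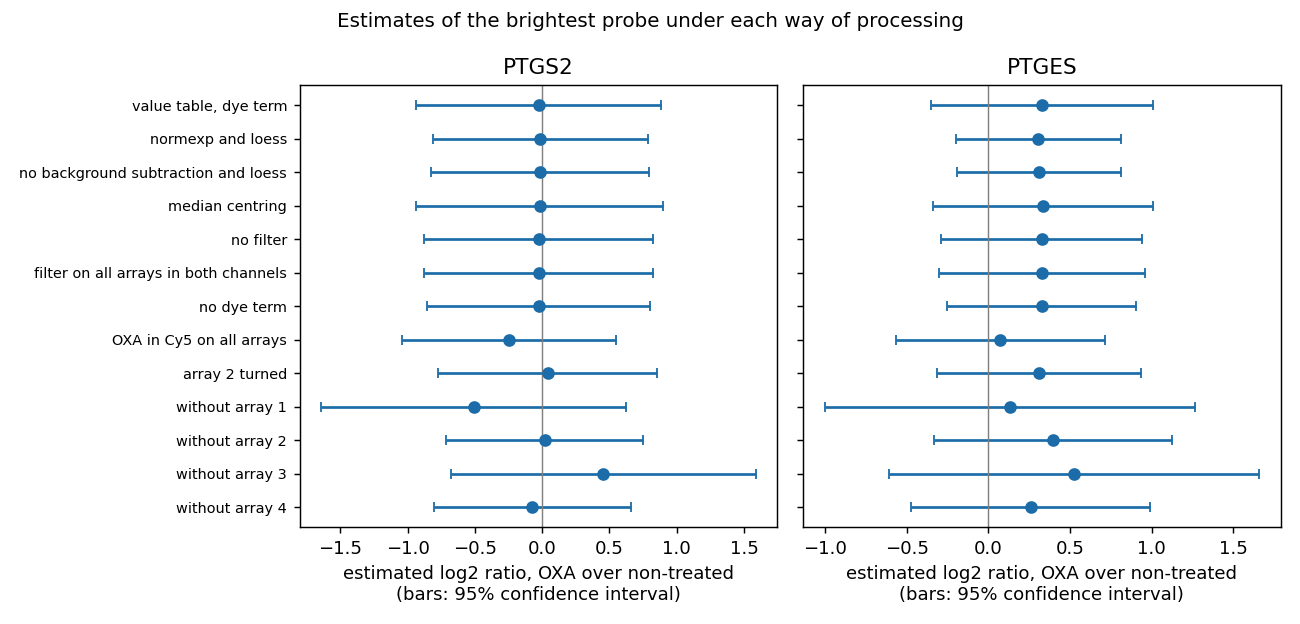
Estimated log2 ratio of OXA over non-treated with its 95% confidence interval (limma) for the brighter probes of PTGS2 and PTGES, with a row for each way of processing or array left out. PTGS2 ranges from -0.51 without array 1 to 0.45 without array 3, PTGES ranges from 0.07 with Cy5 read as OXA on every array to 0.52 without array 3, and every interval includes 0.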

How the data were processed

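The deposited scanner files hold spot intensity on a linear scale, per the file headers from Agilent Feature Extraction 10.7.3.1: median signals, and processed signals that are background-subtracted and dye-normalized within the array. They also hold a log10 ratio of Cy5 over Cy3, which is deposited but was not used, and flags, a deposited mark of 0 or 1 that is neither a signal nor a ratio. The deposited value table holds log2 ratios, whose scale and direction are not described in the labels. They matched log2 of the processed OXA signal over the processed non-treated signal, with dyes as the sample labels give them, with a slope of 0.999 to 1.00, and 99.9% of probes lay within 0.001. Column medians were 0.10, 0.10, -0.19 and 0.07, and over tested probes they lay within -0.05 to 0.01. No further centring was applied. No spot was saturated.

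The log2 ratios of the table were fitted with limma 3.58.1 in R 4.3.3, with a term for OXA and a term for dye (2 residual degrees of freedom, two-sided, Benjamini-Hochberg over 19500 probes). A probe entered the test where OXA-treated RNA, or non-treated RNA, was flagged well above background for 3 or more of the 4 arrays. Spots of a probe were averaged. RefSeq transcripts were matched without versions to RefSeq genes of Sscrofa11.1, for names alone, which named 6700 probes. Probes named by other identifiers were not matched to genes here. The 4 arrays share 1 slide, so no batch term was possible, and their number limits the precision. Genes named are the members, every pathway gene of the list with a probe, the 3 genes most like each member, and cell type markers where a list is described. Members and lists were chosen with earlier results of these data known. The fit was tested on simulated data. Alternatives were normexp (offset 50) with loess on median signals, no background subtraction, median centring, other filters, no dye term, other dye readings, leaving out each array, a looser threshold, and averaging the probes of each gene.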

Additional observations from a re-analysis of the deposited data

Results flagged for a closer look

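Dixon's test for a single distant value picked out 3 of the 31 sets examined, each of 4 arrays, where about 1 in 20 is picked by chance. This holds for the arrays as labelled. With array 2 turned it picked 5 sets, among them PTGDS but not the neutrophil markers, and with Cy5 read as OXA on every array it picked 1. The difference between PTGES and PTGS2, with the brighter probe of each, was picked under each of the 3 readings. These readings leave array 3 as labelled and turn only small differences, so they could not test this one. PTGDS had a log2 ratio of -1.23 on array 2, against 0.19 to 0.31 on the other arrays. Neutrophil markers had a median log2 ratio of -1.99 on array 3, against 0.72 to 0.88 elsewhere. With the brighter probes, the PTGES log2 ratio minus that of PTGS2 was 1.25 on array 3, against -0.02 to 0.11 elsewhere. With the dimmer probes array 3 was not alone, since on array 4 PTGES had 0.61 and PTGS2 had -0.09.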

How the results depend on the processing

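Each ratio already pairs both channels of 1 array, so the fit is paired by array, and the samples form 1 group. Pairing by animal could not be examined, since it is not given whether the channels shared an animal. Member probes called stayed at 0 in all 12 refits and at the looser threshold. Leaving out 1 array leaves 1 residual degree of freedom, with a spread shared by all probes, and then between 1 and 1093 probes were called, the most without array 2 (259 higher and 834 lower). An unadjusted p under 0.05 with at least 1.2-fold gave 234 probes. The 1 listed gene among them, TBXAS1, passed the filter through the OXA channel alone, so its place there is a description and no test result. The median of the listed genes was -0.11 with the filter on all arrays in both channels (7 genes in place of 9) and -0.060 with Cy5 read as OXA on every array, and ran from -0.038 to 0.28 without 1 array. With array 2 turned, the sign reversed for PTGS2 (0.042), PTGDS (0.43), AKR1CL1 (-0.067) and ALOX5AP (0.063), and 5263 probes had an unadjusted p under 0.05. With Cy5 read as OXA on every array it reversed for PTGDS (0.36), TBXAS1 (-0.34), AKR1B1 (-0.060), AKR1CL1 (-0.64), CBR1 (-0.095), PTGER3 (0.024), ALOX5AP (0.35) and the dimmer PTGES probe (-0.011). Without 1 array, estimates ran from -0.51 to 0.45 for PTGS2, -0.58 to 0.36 for its dimmer probe, -0.49 to 0.26 for PTGDS, -0.18 to 0.91 for AKR1B1, -1.03 to 1.30 for AKR1CL1, -0.28 to 0.55 for CBR1, -0.0042 to 0.28 for PTGR1, -0.50 to 0.080 for PTGER3 and -0.49 to 0.25 for ALOX15. The cause of these reversals was not tested. Through the dye term, estimates without 1 array weigh the remaining arrays unequally and are not their plain means. Other background correction reversed no sign among these genes. Dropping the filter or the dye term leaves each estimate as it was, so these settings could not test the signs. Centring, which shifts all estimates by the same small amount, reversed none. With no filter (12 genes) the median was -0.0033. Signal over background limits PTGFR, TBXAS1 and AKR1CL1.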
